A study of Mus musculus with 11 samples.

Results

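The 9 genes described here encode the lipopolysaccharide co-receptor CD14, 6 Toll-like receptors (Tlr1, Tlr2, Tlr4, Tlr7, Tlr9 and Tlr13), the adaptor MyD88 and the inhibitory kinase IRAK-M (Irak3). They were taken by symbol from the 14604 genes of the deposited table, and all 9 were listed and passed the filter on low values with 13897 genes in all. MC38, a mouse colon adenocarcinoma line, was grown as a graft, and Tregs were sorted by flow cytometry as live CD4+ GITR+ CD25+ cells from the tumors (TI-Tregs) and from spleens of the same tumor-bearing mice. There were 3 spleen and 3 tumor libraries of CD177flox/flox mice, called wild type here, and 3 spleen and 2 tumor libraries of CD177flox/flox/FOXP3-CreYFP mice, called knockout, in which Cre is driven by Foxp3 and thus acts in Tregs. All mice carried the floxed Cd177 allele and an MC38 graft and no group was drug treated by its labels. The methods give an age and the C57BL/6 strain for MC38 grafts in general but do not tie them to these genotypes, and whether a library pooled animals is not given in the sources used here. Cd177 is not listed among the values, so its deletion could not be checked.

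Toll-like receptors are innate sensors of microbial and cell-derived molecules. TLR2 pairs with TLR1 or TLR6 at the cell surface to bind lipopeptides, TLR4 with its partner MD-2 binds lipopolysaccharide passed on by CD14, and TLR7, TLR9 and TLR13 sense single-stranded RNA, CpG DNA and bacterial ribosomal RNA in endosomes. Apart from TLR3 these receptors signal through MyD88 and IRAK kinases to NF-kB, and IRAK-M restrains that step. CD14 and most of these receptors are known above all from monocytes, macrophages and neutrophils, while T cells, Tregs among them, are known to carry some of them at low levels.

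The promoters of 3 of the genes are shown because Tlr2 and Tlr13 had the 2 largest differences between the tissues among the receptors and Tlr1 the only negative difference. The sequences are RefSeq promoter windows of the mouse build GRCm38.p6 around the start of transcription, read 5′ to 3′ on the gene's own strand. Capitals mark the letters GAGGAA, the core bound by the myeloid factor PU.1, and GGNNNTTCC, a kappa B-like motif, each searched on both strands.
Tlr2, chr3:83841559-83841858, minus strand: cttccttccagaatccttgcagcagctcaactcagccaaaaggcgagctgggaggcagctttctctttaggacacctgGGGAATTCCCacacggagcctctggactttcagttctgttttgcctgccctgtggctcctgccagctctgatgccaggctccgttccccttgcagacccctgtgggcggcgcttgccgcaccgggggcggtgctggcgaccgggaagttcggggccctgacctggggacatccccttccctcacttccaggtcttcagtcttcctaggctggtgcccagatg
Tlr13, chrX:106143025-106143324, plus strand: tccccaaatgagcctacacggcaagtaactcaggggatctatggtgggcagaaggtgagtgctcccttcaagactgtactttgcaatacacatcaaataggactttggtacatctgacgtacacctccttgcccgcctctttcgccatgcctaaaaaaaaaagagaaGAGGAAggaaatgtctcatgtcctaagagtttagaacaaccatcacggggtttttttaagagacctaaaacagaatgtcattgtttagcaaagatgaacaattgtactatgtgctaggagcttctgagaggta
Tlr1, chr5:64933509-64933808, minus strand: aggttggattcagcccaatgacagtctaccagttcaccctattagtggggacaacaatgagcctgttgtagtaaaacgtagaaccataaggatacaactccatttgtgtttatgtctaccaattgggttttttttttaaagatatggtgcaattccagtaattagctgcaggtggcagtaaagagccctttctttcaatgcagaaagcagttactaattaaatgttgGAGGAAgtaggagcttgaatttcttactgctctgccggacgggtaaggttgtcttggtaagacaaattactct

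The Tlr2 promoter held 2 kappa B-like matches, 1 on each strand, that overlap each other in a single run of capitals, and the Tlr13 and Tlr1 promoters each held 1 PU.1 core. Among 32851 promoters of this length, 28.3% held the PU.1 core and 18.5% the kappa B-like motif, so both are common, and a match is a description of the letters only. Promoter entries were also matched for Tlr9, with 2 PU.1 cores, for Myd88, with 1 kappa B-like motif, and for Irak3, with 1 PU.1 core in 1 of its 2 entries. Tlr1 had a second entry with neither motif. Tlr4 and Tlr7 had no entry, and the promoter of Cd14 was not used here.

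Values are log2(n + 1), where n is the authors' value for a gene, made from kallisto's estimated counts. The n values of a library summed to 712832 to 844331 in spleen and to 1103159 to 1304548 in tumor. These sums lie below the read depth that the methods give and the scaling of n is not stated, so the reads behind a value are unknown, no counting interval can be given and levels are compared between libraries but not between genes. Foxp3, which defines Tregs, was present in every library at 6.35 ± 0.30 in spleen (mean ± SD, n = 6) and 5.50 ± 0.55 in tumor (n = 5). Of 7 genes used in the sort or marking Tregs 2 were higher and 4 lower in tumor, with Cd3e at 8.17 ± 0.064 and 7.55 ± 0.30, Ctla4 at 8.15 ± 0.21 and 8.72 ± 0.29, and Cd4 at 7.72 ± 0.15 and 7.30 ± 0.25. After quantile normalization or with equal library totals 1 of these genes was higher and 5 were lower, and after median centring 2 were higher and 5 lower. All 16 myeloid markers were higher in tumor without overlap of the libraries, by 2.43 to 7.60 (median 4.72), and none was at 0. Their summed n was 299 to 565 in spleen and 12400 to 17300 in tumor, and among them were Lyz2 (4.75 ± 1.18 and 12.35 ± 0.30), Apoe (5.93 ± 0.42 and 11.05 ± 0.28) and Ctss (6.90 ± 0.087 and 11.01 ± 0.23). All 5 tested fibroblast markers were higher (median 5.54, among them Col3a1, Col1a1 and Col1a2), 6 of 8 CD8 T and NK markers were higher and 1 lower (median 2.62, among them Gzmb, Nkg7 and Prf1), 4 of 7 dendritic cell markers were higher and 1 lower (median 0.41, among them Zbtb46, Cd209a and Xcr1; 2 higher and 2 lower after median centring or with equal library totals), and 6 of 7 tested B cell markers were lower (median -1.15, among them Ighm, Cd79b and Ms4a1). The dendritic cell marker that was lower was Ccr9, with a difference of -2.18. Siglech (-0.46) and Flt3 (0.41) were counted as neither higher nor lower. Of the CD8 T and NK markers, Klrb1c was the one that was lower, with a difference of -1.39, and Ncr1 (0.27) was not called. In bulk samples fewer cells of a type and less RNA per cell cannot be told apart. The part that other cell types have in the differences below was not tested.

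Between the tissues, 8 of the 9 genes were higher in TI-Tregs than in spleen Tregs and Tlr1 was lower. Cd14 had the largest difference of the 9, followed by Tlr2, Tlr13, Tlr4 and Tlr9, while Tlr7, Irak3 and Myd88 differed by about 1 or less than 1 on the log2 scale. limma called 9 of 9 at a Benjamini-Hochberg adjusted p below 0.05, against a background in which 78.9% of 13897 genes were called, 43.1% as higher and 35.9% as lower. For 7 of the 9 genes the ranges of the 2 tissues were separate, against 63.5% of all genes tested. The median difference of the 9 was 2.57, and that of all genes tested was 0.08. The number called does not set the 9 genes apart from this background, and the size of the differences does so for some of them only. Among the rises of all genes tested Tlr9 ranked 704, Tlr7 2381, Irak3 3642, Myd88 4892 and Tlr1 10905. The size is given gene by gene.

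**Figure D1:**
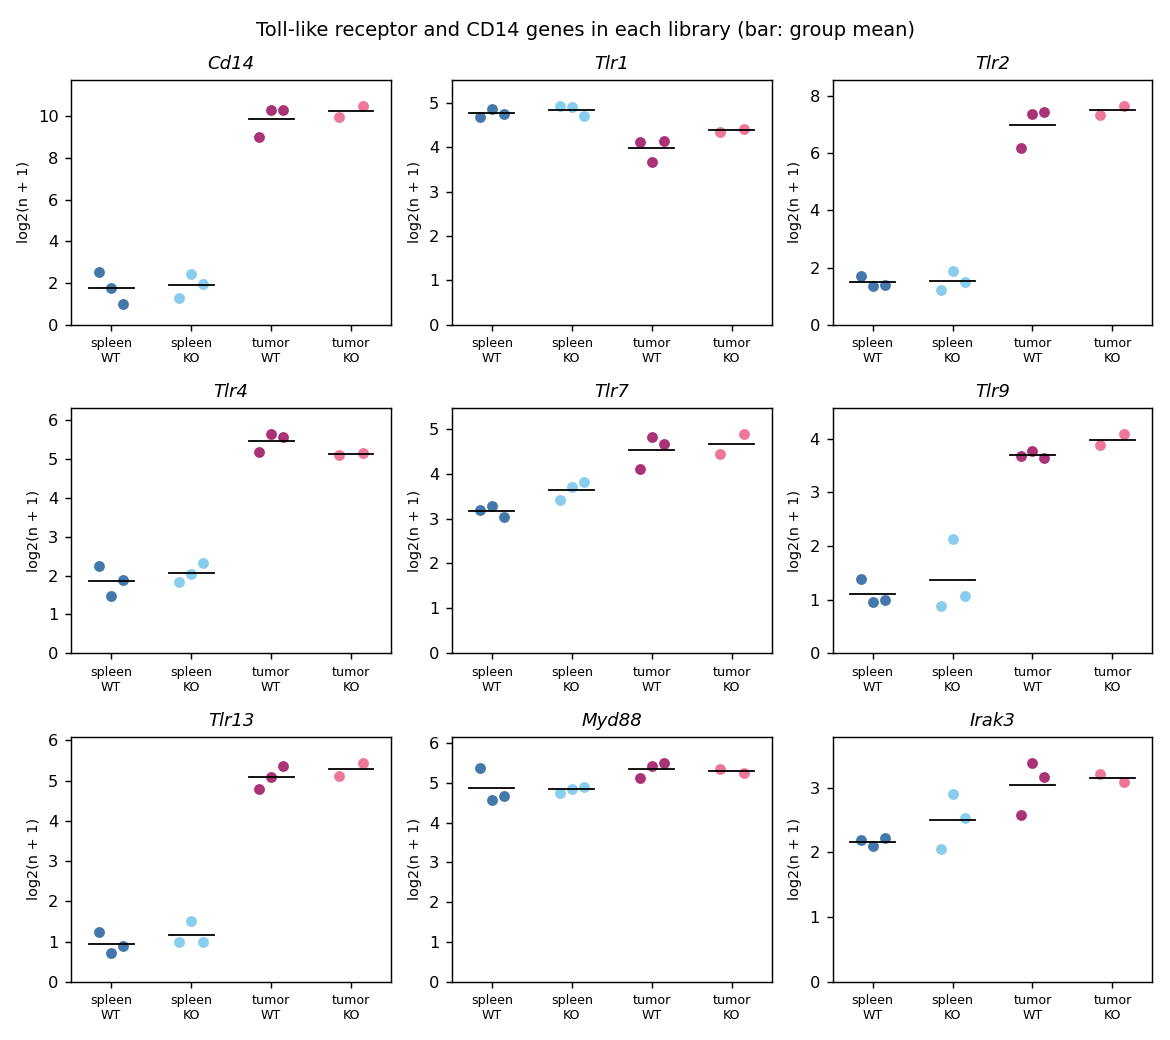
The 9 genes in each of the 11 libraries as deposited log2(n + 1) on the vertical axis, by tissue and genotype (WT, wild type; KO, knockout), with points for libraries and bars for group means. The tumor libraries lay above all spleen libraries for Cd14, Tlr2, Tlr4, Tlr7, Tlr9 and Tlr13, below them for Tlr1, and overlapped them for Myd88 and Irak3.

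Cd14 encodes a GPI-anchored protein that binds lipopolysaccharide and hands it to the TLR4 complex. In spleen Tregs Cd14 lay between 1.01 and 2.52 (median 1.84, n = 6). In tumor it was at 9.01, 10.32 and 10.29 in the wild-type libraries and at 9.99 and 10.50 in the knockout libraries. Every tumor library was thus far above every spleen library, and the lowest tumor value came from wild-type replicate 1. The difference was 8.19 ± 0.31 (SE; limma adjusted p = 1.6e-10, exact two-sided permutation p = 0.0043, the smallest that 6 against 5 libraries can give). It ranked 5 among the rises of all genes tested. In linear terms the mean n was 391 times that of spleen, where n was only 1.01 to 4.74, so the fold depends on the pseudocount. With a pseudocount of 5 in place of 1 the difference of Cd14 was 7.08, and with 0.1 it was 8.67. Cd14 lies on chromosome 18 (GRCm38, 36725067 to 36726798, minus strand) with 1 merged exon.

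Tlr2 encodes the lipopeptide receptor that works as a dimer with TLR1 or TLR6. In spleen Tlr2 ranged from 1.22 to 1.87 (median 1.44, n = 6). In tumor it was at 6.16, 7.35 and 7.43 in wild type and at 7.34 and 7.65 in knockout. The groups were far apart, with wild-type tumor replicate 1 again the lowest tumor library. Tlr2 was higher by 5.69 ± 0.23 (limma adjusted p = 2.2e-10, exact permutation p = 0.0043), the rise of rank 68, and its mean n was 82.1 times that of spleen. Tlr2 lies on chromosome 3 (83836272 to 83841767, minus strand) and shares no 31-base stretch of its exons with another annotated gene.

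Tlr4 encodes the signalling receptor for lipopolysaccharide. It ranged from 1.48 to 2.33 in spleen (median 1.97, n = 6). In tumor Tlr4 was at 5.19, 5.64 and 5.56 in wild type and at 5.10 and 5.17 in knockout. All 5 tumor libraries were above all 6 spleen libraries, and here wild-type replicate 1 was not the lowest. The difference of Tlr4 was 3.36 ± 0.16 (limma adjusted p = 9.1e-10, exact permutation p = 0.0043), rank 378 among rises and 13.2 times in mean n. Within each library, Tlr2 relative to Tlr4 was higher in tumor than in spleen by 2.33 on the log2 scale (exact permutation p = 0.0043). The gene is on chromosome 4 (66827584 to 66930284, plus strand).

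Tlr1, the partner of TLR2 for triacylated lipopeptides, went the other way. It was between 4.69 and 4.93 in spleen (median 4.80, n = 6). In tumor it was at 4.12, 3.67 and 4.15 in wild type and at 4.35 and 4.42 in knockout. Every tumor library was below every spleen library. Tlr1 fell by 0.66 ± 0.12 (limma adjusted p = 1.9e-04, exact permutation p = 0.0043), with a ratio of mean n of 0.626. With equal library totals Tlr1 was lower by more, with a difference of -1.26. Of the 31-base stretches in the Tlr1 exons 18.3% also occur in Tlr6, its neighbor on chromosome 5 (Tlr1, 64924679 to 64933563, minus strand; Tlr6, 64952031 to 64960097), so reads may have been split between them. Tlr6, the other TLR2 partner, was higher in tumor by 1.20 ± 0.13 (adjusted p = 1.5e-06). The n of Tlr1 and Tlr6 summed in each library was lower in tumor by 0.33 on the log2 scale (4.91 ± 0.11 in spleen, 4.59 ± 0.22 in tumor, exact permutation p = 0.013). Within a library, Tlr1 relative to Tlr6 was lower in tumor by 1.87, and Tlr2 relative to Tlr1 was higher by 6.35 (each exact permutation p = 0.0043).

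Tlr13 encodes the endosomal receptor for bacterial 23S ribosomal RNA. In spleen Tlr13 was at 0.711 to 1.504 (median 0.98, n = 6). In tumor it was at 4.79, 5.09 and 5.36 in wild type and at 5.13 and 5.44 in knockout. The gap between the groups was wider than the range within either of them. The difference of Tlr13 was 4.11 ± 0.15 (limma adjusted p = 1.3e-10, exact permutation p = 0.0043), rank 212 among rises and 31.9 times in mean n. Because n in spleen was between 0.637 and 1.84, the difference of Tlr13 depends on the pseudocount, with 2.71 at 5 and 4.93 at 0.1. Tlr13 is on the X chromosome (106143204 to 106160493, plus strand).

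Tlr9 encodes the CpG DNA receptor. In spleen it ranged from 0.87 to 2.13 (median 1.02, n = 6), the highest value being that of knockout replicate 2. In tumor Tlr9 was at 3.67, 3.76 and 3.64 in wild type and at 3.87 and 4.08 in knockout. The groups did not overlap, and both knockout tumor libraries were above the 3 wild-type tumor libraries. The difference of Tlr9 was 2.57 ± 0.20 (limma adjusted p = 1.0e-07, exact permutation p = 0.0043), or 8.87 times in mean n, and 1.49 with a pseudocount of 5. Tlr9 is on chromosome 9 (106222598 to 106226883, plus strand).

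Tlr7 encodes a receptor for single-stranded RNA that plasmacytoid dendritic cells, B cells and macrophages are known to use. It ranged from 3.04 to 3.81 in spleen (median 3.34, n = 6). In tumor Tlr7 was at 4.11, 4.81 and 4.65 in wild type and at 4.45 and 4.87 in knockout. All tumor values lay above the spleen values, with a narrow gap between the lowest tumor library, wild-type replicate 1, and the highest spleen library. Tlr7 was higher by 1.18 ± 0.17 (limma adjusted p = 2.3e-05, exact permutation p = 0.0043), or 2.39 times in mean n, and by 0.59 with equal library totals (adjusted p = 0.010). It is on the X chromosome (167304929 to 167330558, minus strand), next to Tlr8.

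Myd88, the adaptor that links most of these receptors to IRAK kinases, differed least. It ranged from 4.58 to 5.39 in spleen (median 4.80, n = 6). In tumor Myd88 was at 5.12, 5.42 and 5.50 in wild type and at 5.36 and 5.25 in knockout. The groups overlapped through wild-type spleen replicate 1, the highest spleen library at 5.39. The difference of Myd88 was 0.47 ± 0.13 (limma adjusted p = 0.0045, exact permutation p = 0.017). Its direction turned to -0.14 with equal library totals (adjusted p = 0.42), and it was not called after quantile normalization (0.19, adjusted p = 0.20) or median centring (0.25, adjusted p = 0.077). Myd88, on chromosome 9 (119335934 to 119341411, minus strand), overlaps exons of Acaa1a on the opposite strand by 223 bases, and 8.93% of its 31-base stretches occur there, so its level is uncertain to that extent.

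Irak3 encodes IRAK-M, which holds back IRAK signalling and is known from macrophages made tolerant to endotoxin. It ranged from 2.05 to 2.91 in spleen (median 2.20, n = 6). In tumor Irak3 was at 2.58, 3.38 and 3.17 in wild type and at 3.21 and 3.09 in knockout. The groups overlapped, since knockout spleen replicate 2 was above wild-type tumor replicate 1. The difference of Irak3 was 0.75 ± 0.18 (limma adjusted p = 0.0016, exact permutation p = 0.0087), and with equal library totals it was 0.23 and not called (adjusted p = 0.31). Irak3, on chromosome 10 (120141648 to 120202130, minus strand), overlaps Tmbim4 on the opposite strand, with 3.6% of its 31-base stretches shared.

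The scaling of the libraries bears on the small differences most. Over all genes tested the median difference was 0.08 as deposited, -0.16 where libraries were quantile normalized, -0.14 where each was centred on its median and -0.44 where totals were made equal, and 54.5%, 42.1%, 43.7% and 29.6% of the called genes were higher in tumor in that order. Among the 9 genes, 8 were called higher as deposited, 7 after quantile normalization or median centring and 6 with equal totals, and Tlr1 was called lower under all 4. With equal library totals Cd14 stood at 7.65, Tlr2 at 5.16, Tlr13 at 3.64, Tlr4 at 2.81 and Tlr9 at 2.10. The order of these 5 genes was the same under each of the 4 scalings.

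**Figure D2:**
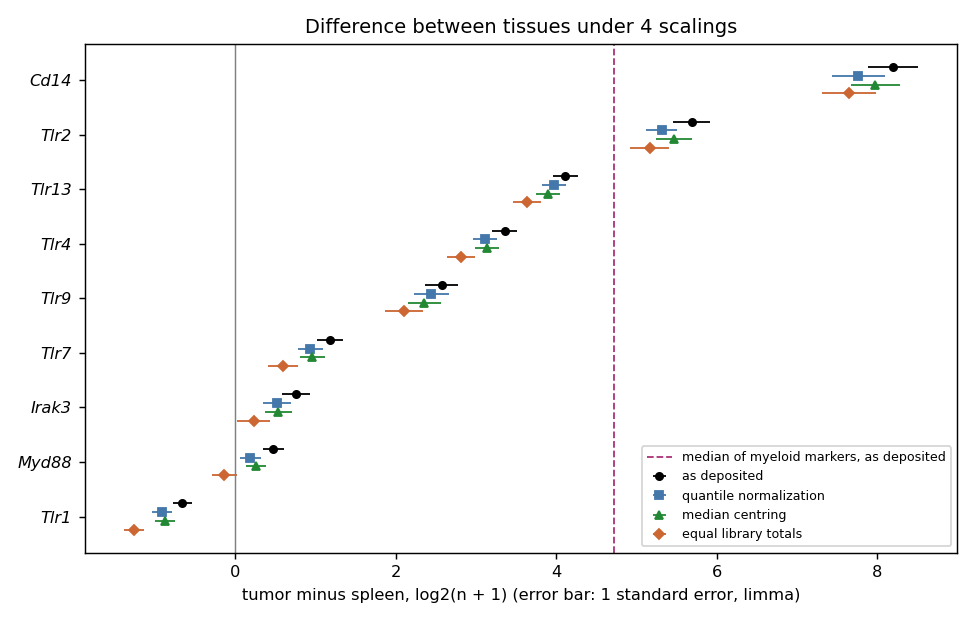
Difference of each gene between tumor and spleen libraries on the log2(n + 1) scale (horizontal axis) under 4 scalings, with error bars of 1 standard error and a dashed line at the median of the 16 myeloid markers, 4.72. Cd14 and Tlr2 lie to the right of the line and the other 7 genes to its left, and Myd88 crosses 0 with equal library totals.

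Relative to the myeloid markers of the same library, the 9 genes divided. The mean of the 16 myeloid markers was subtracted from each gene in each library, and the differences compared between tissues by exact two-sided permutation tests over libraries. Cd14 rose more than the myeloid markers, from -1.98 ± 0.34 in spleen (n = 6) to 1.52 ± 0.50 in tumor (n = 5), a difference of 3.49 (exact permutation p = 0.0043). Tlr2 went from -2.30 ± 0.22 to -1.31 ± 0.50, a difference of 0.99 (exact permutation p = 0.013), with overlap through wild-type tumor replicate 1 at -2.20. This difference of Tlr2 was 0.24 with a pseudocount of 5. Against Lyz2 alone, the myeloid lysozyme gene, Cd14 differed by 0.60 between the tissues (exact permutation p = 0.23), and the libraries overlapped. Lyz2 had the largest rise of the 16 markers, 7.60 beside their median of 4.72.

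The other 7 genes were lower relative to the myeloid markers in tumor than in spleen, without overlap. The median difference of all genes tested was -4.62 by this measure, so a fall by it is common. The share of all genes without overlap by this measure was not computed. Tlr13 was the closest of them to the markers, with a difference of -0.59 (exact permutation p = 0.0043), which turned to 0.02 with a pseudocount of 0.1 and was -1.51 with 5. Tlr4 was lower by this measure with -1.34, Tlr9 with -2.13, Tlr7 with -3.52, Irak3 with -3.94, Myd88 with -4.23 and Tlr1 with -5.36 (each exact permutation p = 0.0043). The single-library ranges of Tlr4 were -2.38 to -1.39 in spleen and -3.49 to -2.87 in tumor, and those of Tlr9 were -2.87 to -2.30 and -4.90 to -4.56. A gene that has the same level in tumor and spleen falls by the rise of the markers in this measure, as Myd88 nearly did, so its sign says how a gene compares with the markers and not how its own level moved.

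**Figure D3:**
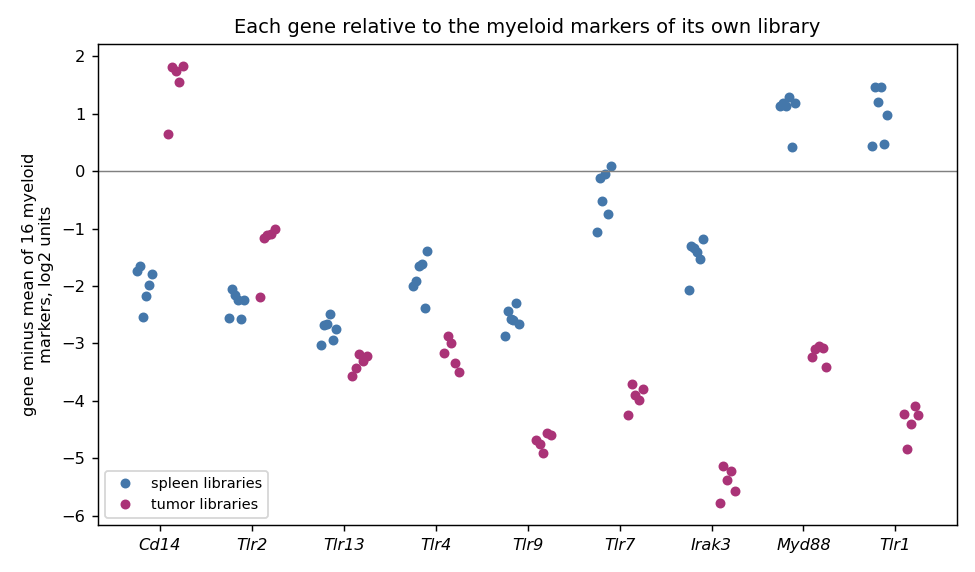
Each gene minus the mean of the 16 myeloid markers of its own library (vertical axis, log2 units), in 6 spleen and 5 tumor libraries, genes ordered by the difference between tissues. Tumor libraries lie above the spleen libraries for Cd14, overlap them for Tlr2 and lie below them for the other 7 genes.

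Within each genotype the directions were those of the pooled comparison. In wild-type mice limma called 9 of 9 (background 70.5%, with 39.2% higher and 31.3% lower), and in knockout mice 8 of 9 (background 65.7%, with 36.2% higher and 29.5% lower). Cd14 differed by 8.11 ± 0.45 in wild type and 8.35 ± 0.50 in knockout, Tlr2 by 5.50 ± 0.30 and 5.97 ± 0.34, Tlr13 by 4.14 ± 0.21 and 4.13 ± 0.23, and Tlr4 by 3.59 ± 0.20 and 3.06 ± 0.23. Tlr9 differed by 2.58 ± 0.28 and 2.62 ± 0.31, and Tlr7 by 1.36 ± 0.19 and 1.02 ± 0.21. The wild-type call of Myd88 and the knockout calls of Tlr1 and Irak3 rested on single libraries.

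Myd88 differed by 0.47 ± 0.19 in wild type (limma adjusted p = 0.046) and by 0.47 ± 0.21 in knockout (adjusted p = 0.073). In wild type it was no longer called without spleen wild-type replicate 2 (0.31) or 3 (0.37), without tumor wild-type replicate 2 (0.43) or 3 (0.39), or without any of the 5 knockout libraries (0.47, adjusted p from 0.056 to 0.060), and it was 0.72 without spleen wild-type replicate 1. Without that last library Myd88 was called in knockout (0.47, adjusted p = 0.0092). The difference of Tlr1 was -0.78 ± 0.13 in wild type and -0.46 ± 0.15 in knockout (adjusted p = 0.018). The knockout call of Tlr1 was lost without spleen knockout replicate 1 (-0.42) or 2 (-0.43) and without tumor knockout replicate 1 (-0.43) or 2 (-0.50). Irak3 differed by 0.88 ± 0.24 in wild type and 0.66 ± 0.27 in knockout (adjusted p = 0.0496). The knockout call of Irak3 was lost without spleen knockout replicate 1 (0.43) or 3 (0.67), without tumor knockout replicate 1 (0.59) or 2 (0.72), without any of the 3 spleen wild-type libraries (0.66, adjusted p from 0.063 to 0.065) and without tumor wild-type replicate 3 (0.66, adjusted p = 0.061).

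Knockout and wild type did not differ past the threshold for any of the 9 genes. The interaction of tissue and genotype called none of them (background 0%, with 383 of 13897 genes at an unadjusted p below 0.05), and its value furthest from 0 was that of Tlr4, -0.53 ± 0.31 (limma adjusted p = 0.9997). In spleen none was called (background 0%, 281 genes at an unadjusted p below 0.05), and Tlr7 was furthest from 0 at 0.47 ± 0.19 (adjusted p = 0.9998, unadjusted 0.032). In tumor none was called (background 0.0072%, 634 genes at an unadjusted p below 0.05), and the difference of Tlr2 was 0.51 ± 0.34. Tlr1 was 0.40 ± 0.15 there (adjusted p = 0.9997, unadjusted 0.021), both knockout tumor libraries being above the 3 wild-type ones. A p that misses the threshold does not show that the genotypes were alike.

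Ordered by group mean, 6 of the 9 genes (Cd14, Tlr2, Tlr7, Tlr9, Tlr13 and Irak3) were highest in knockout tumor, then wild-type tumor, knockout spleen and wild-type spleen. The means of Cd14 in that order were 10.24 ± 0.36 (n = 2), 9.87 ± 0.75, 1.89 ± 0.59 and 1.76 ± 0.76 (n = 3 each), and the neighbors within a tissue overlapped. For Tlr2 they were 7.49 ± 0.22, 6.98 ± 0.71, 1.52 ± 0.32 and 1.48 ± 0.18, with overlap within each tissue. Tlr13 had 5.28 ± 0.22, 5.08 ± 0.29, 1.16 ± 0.30 and 0.94 ± 0.26, again with overlap within each tissue. Tlr9 had 3.97 ± 0.14, 3.69 ± 0.062, 1.36 ± 0.68 and 1.11 ± 0.24, and only its spleen groups overlapped. Tlr7 had 4.66 ± 0.30, 4.52 ± 0.36, 3.64 ± 0.20 and 3.16 ± 0.12, and its tumor groups overlapped while its spleen groups did not. Irak3 had 3.15 ± 0.088, 3.04 ± 0.41, 2.50 ± 0.43 and 2.17 ± 0.067, and all its neighbors overlapped. Tlr4 was highest in wild-type tumor (5.46 ± 0.24), then knockout tumor (5.13 ± 0.051), knockout spleen (2.08 ± 0.24) and wild-type spleen (1.87 ± 0.38), with overlap of the spleen groups. Myd88 had 5.35 ± 0.21 in wild-type tumor, 5.31 ± 0.074 in knockout tumor, 4.88 ± 0.44 in wild-type spleen and 4.84 ± 0.077 in knockout spleen, and all neighbors overlapped. Tlr1 was highest in knockout spleen (4.85 ± 0.13), then wild-type spleen (4.77 ± 0.085), knockout tumor (4.38 ± 0.052) and wild-type tumor (3.98 ± 0.27), and its spleen groups overlapped.

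Single libraries shifted several of the 9 genes together. Wild-type tumor replicate 1 was the lowest of the 5 tumor libraries for Cd14, Tlr2, Tlr7, Tlr13, Myd88 and Irak3, and none of the 9 genes was above the mean of the other tumor libraries there. The mean of its tested pathway target genes was also the lowest (6.77, against 7.88 to 8.44 in the others), and so was its myeloid marker mean (8.36, against 8.43 to 8.66). Knockout tumor replicate 2 was the highest for 6 genes (Cd14, Tlr1, Tlr2, Tlr7, Tlr9 and Tlr13). In spleen, knockout replicate 2 was the highest for Tlr2, Tlr9, Tlr13 and Irak3 and above the mean of the other spleen libraries for 8 of the 9 genes, and its means of myeloid markers (4.44), B cell markers (3.94), CD8 T and NK markers (3.14) and dendritic cell markers (1.98) were the highest of the 6. Without wild-type tumor replicate 1 and knockout spleen replicate 2, a choice made after the values were seen, 9 of 9 genes were called in the pooled comparison, 9 in wild type and 8 in knockout. The share of all genes called without these libraries was not computed. With all libraries it was 78.9%, 70.5% and 65.7% in that order. What part the RNA of these cell types has in these library differences was not tested.

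**Figure D4:**
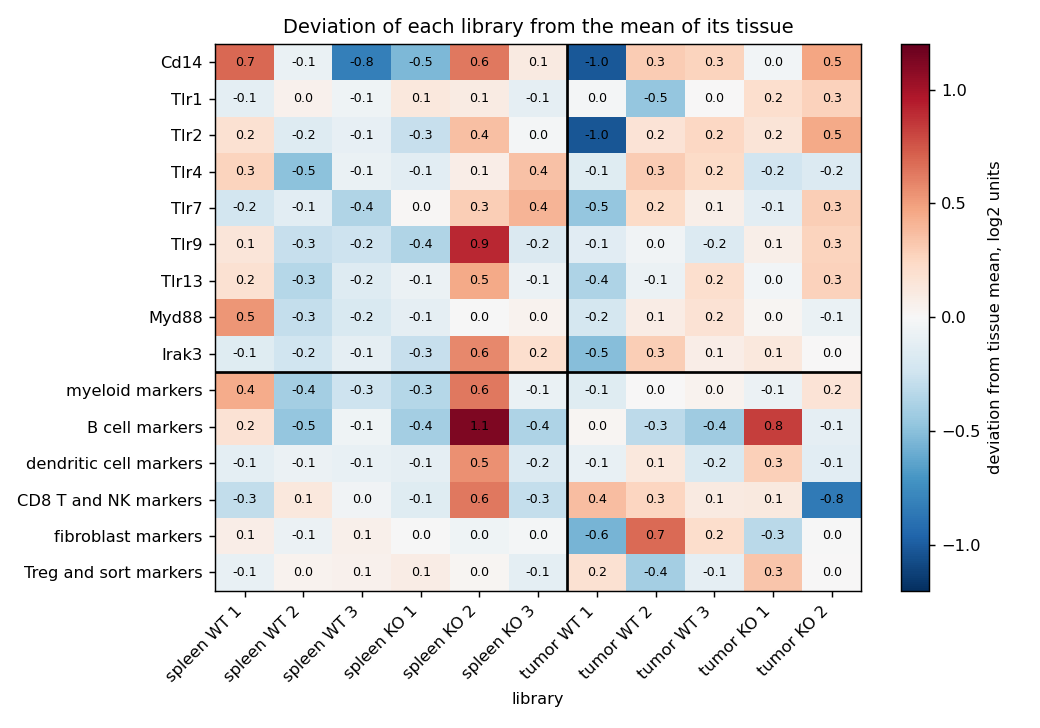
Deviation of each library (columns) from the mean of its tissue in log2 units, for the 9 genes and for the mean of 6 marker lists (rows), with colour and printed values giving the size. Spleen knockout replicate 2 is above the spleen mean for most of the genes and for B cell and myeloid markers, and tumor wild-type replicate 1 is lowest for 6 of the 9 genes.

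The remaining genes of the pathway were read by role, in 6 lists of 57 tested genes, of which 40 were higher in tumor, 10 lower and 7 not called, beside 43.1% higher and 35.9% lower among all genes tested. The split of the 57 was 33 higher and 15 lower after quantile normalization, 33 and 14 after median centring, and 29 and 21 with equal library totals. Among the other Toll-like receptors and their relative Cd180, 6 of 6 tested were higher (median 2.16) and Tlr11 was not listed. Tlr8, the RNA receptor beside Tlr7 on the X chromosome, was at 1.34 ± 0.60 in spleen and 5.18 ± 0.34 in tumor, a difference of 3.85 ± 0.27 (limma adjusted p = 2.9e-08). Cd180, an LPS-response regulator of B cells and myeloid cells, was higher by 3.58, the double-stranded RNA receptor gene Tlr3 by 2.18, the flagellin receptor gene Tlr5 by 2.14 and Tlr12 by 0.71. Tlr3 and Tlr5 were close to 0 in spleen, at 0.45 ± 0.20 and 0.11 ± 0.062, and their differences depended on the pseudocount, with 0.93 and 0.79 at 5 and 3.57 and 4.47 at 0.1. Tlr12 was not called after median centring (0.49) or with equal library totals (0.24).

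Of the coreceptors and trafficking genes 8 of 8 were higher, with a median of 1.80. After quantile normalization 7 were higher and 1 not called, and with equal library totals 6 were higher and 2 not called (median 1.28). Ly86, which encodes the CD180 partner MD-1, was higher by 4.66, Cd36, a scavenger receptor that assists TLR2, by 4.01, and Unc93b1, which carries the endosomal receptors out of the endoplasmic reticulum, by 3.34 ± 0.15 (limma adjusted p = 6.0e-10). Ly96, which encodes the TLR4 partner MD-2, was higher by 1.80, the lipopolysaccharide-binding protein gene Lbp by 1.79 and Hsp90b1, the chaperone gp96 of Toll-like receptors, by 1.57. All 8 had no overlap between tumor and spleen libraries, against 63.5% of all genes tested.

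The adaptors and kinases downstream did not move one way. Of 18 genes 7 were higher, 7 lower and 4 not called, with a median of -0.01. Ikbke, which encodes the IKK-epsilon kinase, had a difference of -2.27 ± 0.11 (limma adjusted p = 1.2e-09), from 7.21 ± 0.076 in spleen to 4.95 ± 0.29 in tumor, and Ikbkb and Chuk, which encode the IKK kinases beta and alpha, had differences of -1.08 and -0.81. Irak2, a kinase of the MyD88 complex, was higher by 1.07, and the TRIF-branch adaptors Ticam2 and Ticam1 by 0.95 and 0.60. Irak4 (0.004), Traf6 (-0.12), Traf3 (-0.01) and Tbk1 (0.16) did not pass the threshold. Ticam1 was not called with equal library totals (0.06). Traf6 was called lower without tumor knockout replicate 1 (-0.25) and Tbk1 higher without tumor wild-type replicate 1 (0.25). Traf6 and Traf3 were called lower under the 3 other scalings, Traf6 between -0.72 and -0.34 and Traf3 between -0.63 and -0.23. With equal library totals 2 genes of this list were called higher and 13 lower, and after quantile normalization 3 and 10. Irak4 and Tbk1 were among those called lower with equal library totals, at -0.59 and -0.45.

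Among 6 transcription factors 4 were higher, 1 lower and 1 not called, while 2 were higher and 2 lower after quantile normalization or median centring, and 2 higher and 4 lower with equal library totals. Irf5, a factor of the MyD88 branch in myeloid and B cells, was higher by 2.78 ± 0.15 (limma adjusted p = 2.4e-09), and Rel, the NF-kB subunit c-Rel, by 1.004. Irf7 and Rela were higher by 0.31 and 0.24 on the deposited scale, and with totals made equal their differences were -0.30 and -0.38, Irf3 differed by -0.83 with overlap of the libraries, and Nfkb1 by -0.09 (not called). Nfkb1 was called lower after quantile normalization (-0.76), median centring (-0.30) and scaling to equal totals (-0.71), and without tumor knockout replicate 1 (-0.18). The call of Irf7 was lost without spleen wild-type replicate 1 (0.25), spleen knockout replicate 2 (0.30), tumor wild-type replicate 1 (0.29) or 3 (0.25), or tumor knockout replicate 1 (0.28). Of 7 inhibitors 3 were higher, 2 lower and 2 not called, while 3 were higher and 3 lower after quantile normalization and 2 higher and 4 lower with equal library totals. Nfkbia, which encodes the NF-kB inhibitor I-kappa-B-alpha, was higher by 2.02, the IRAK1 inhibitor gene Tollip by 1.14 and the RNase gene Zc3h12a by 0.72, which was 0.10 and not called with equal library totals. Sigirr, a receptor that damps Toll-like and IL-1 receptor signals, had a difference of -1.26 ± 0.093 (limma adjusted p = 5.0e-08), and Cyld, a deubiquitinase gene, had -0.58. Tnfaip3 (0.19) and Socs1 (0.19) did not pass the threshold, though Socs1 did without spleen wild-type replicate 2 (0.22) or tumor knockout replicate 2 (0.25). With equal library totals Tnfaip3 and Socs1 were called lower, Socs1 at -0.43. Tnfaip3 was also called lower after quantile normalization, at -0.65.

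All 12 tested target genes were higher in tumor, with a median of 5.75 and no overlap of libraries, and 12 of 12 were called higher under each of the 4 scalings. Among all genes tested 63.5% had no overlap. Il1b, a cytokine of activated myeloid cells, was at 1.31 ± 0.75 in spleen and 10.26 ± 1.03 in tumor, a difference of 8.95 ± 0.46 (limma adjusted p = 1.9e-09). The neutrophil chemokine gene Cxcl2 differed by 8.18, the prostaglandin synthase gene Ptgs2 by 8.09, the IL-1 antagonist gene Il1rn by 7.55, the itaconate synthase gene Acod1 by 6.45 and the chemokine gene Ccl4 by 5.92. Il6, Il12b, Ifnb1, Cxcl1 and Saa3 were not listed. Beside these counts stand the myeloid markers, of which 16 of 16 were higher with a median of 4.72. Whether the targets rose through these receptors was not tested.

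**Figure D5:**
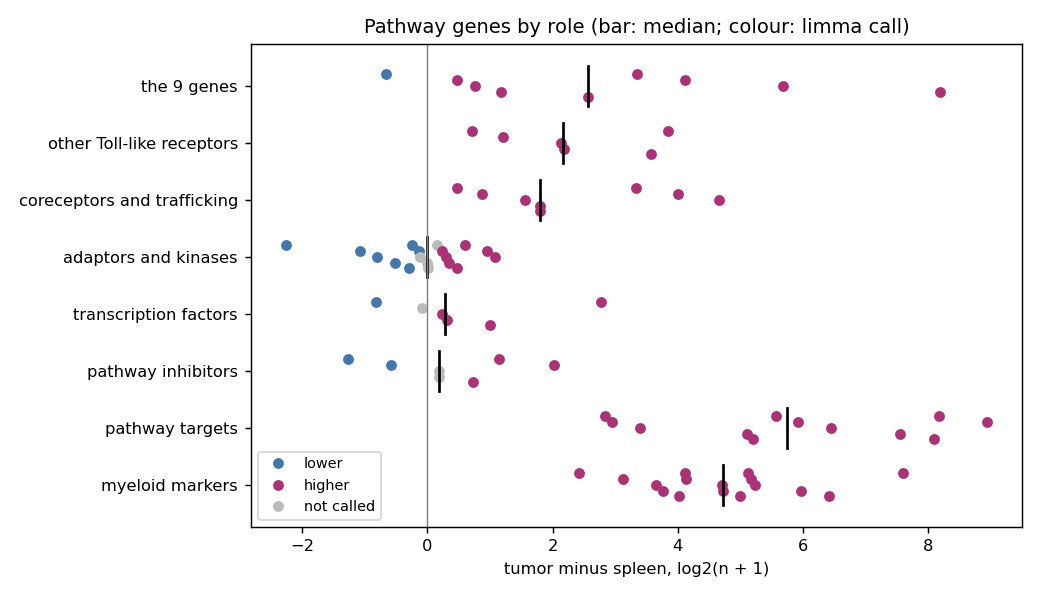
Difference between tumor and spleen libraries on the log2(n + 1) scale (horizontal axis) for the 9 genes, 6 lists of pathway genes by role and the myeloid markers, each point a gene, coloured by its limma call, with a bar at the list's median. Target genes and myeloid markers lie at medians of 5.75 and 4.72, other Toll-like receptors and coreceptors at 2.16 and 1.80, and adaptors and kinases around 0.

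The genes whose profile over the 11 libraries was nearest to each of the 9 were found by the root mean square (RMS) difference of log2 values after each gene was centred on its mean. Nearest to Cd14 were Il1rn (0.502), Fcgr2b (0.52), an inhibitory Fc receptor gene, and Ptgs2 (0.535), and nearest to Tlr2 were Ch25h (0.295), C3ar1 (0.296) and Mmp12 (0.301). Tlr4 was nearest to Hk2 (0.161), Ctsb (0.179) and Dstn (0.201), Tlr13 to Adssl1 (0.157), Ctsc (0.157) and Lpcat2 (0.158), and Tlr9 to Btk (0.157), Nfam1 (0.171) and Lifr (0.171). Tlr7 was nearest to Ufm1 (0.156), Tmem50b (0.183) and Rab18 (0.186). Tlr1 was nearest to Lbr (0.115), Tmem136 (0.119) and Urb1 (0.122), Myd88 to Bcat2 (0.111), Cdr2 (0.112) and Vnn3 (0.123), and Irak3 to Tm2d1 (0.174), Dohh (0.182) and Fcho2 (0.182). The difference between tissues makes up most of these profiles for the genes that differ most, so likeness here is mainly a like difference. Among the 9 genes themselves, Tlr7 and Irak3 were nearest to each other (0.291), and Tlr4 and Tlr13 lay 0.463 apart.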

How the data were processed

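RNA of sorted Tregs was measured in 11 libraries. After depletion of ribosomal RNA, the authors assigned single-end reads to mm10 transcripts with kallisto (version not given in the sources used here), aggregated the estimated counts by gene symbol in sleuth 0.30.0 and deposited log2(n + 1) values. The scaling of n and the strandedness of the kit are not stated, so the reads behind a value are unknown. Samples were grouped by their labels. Genes with a mean log2 value of at least 0.5 were kept (13897 of 14604; 707 were removed). limma 3.58.1 in R 4.3.3 (mean-variance trend) compared 6 spleen with 5 tumor libraries, and a model with 4 group means gave the comparisons within genotypes and between them. A gene was called at a Benjamini-Hochberg adjusted p below 0.05. No source says whether replicates are separate mice, so p-values measure only the spread between these libraries. Spleens came from the same mice as the tumors, but no source ties the replicate numbers to animals. Exact two-sided permutation tests used scipy 1.17.1. Values relative to myeloid markers were compared by permutation tests only, since the marker mean of a library enters every gene and limma p-values would then share its error. The fit was tested on simulated data. Positions and 31-base matches came from GENCODE M21 on GRCm38 (mm10), promoters from RefSeq. The 9 genes and all lists were chosen with earlier results of these data known. Named besides the 9 were, per pathway list, up to 6 called genes with the largest differences and those not called or not listed; per marker list, the 3 with the highest mean in the tissue where the list was higher; and the 3 nearest profiles. Foxp3 and Lyz2 in the within-library comparison, and Tlr6 beside Tlr1, were added as checks. The dendritic cell markers and the CD8 T and NK markers that were not higher were named to show the other direction. Alternatives changed scaling, pseudocount (0.1 or 5), filter, variance model, correction, covariates, block and libraries.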

Additional observations from a re-analysis of the deposited data

Results flagged for a closer look

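Of 30 sets of values looked at (the 9 genes and 6 marker list means, each in spleen and in tumor), 3 had a library far from the others by Dixon's criterion, where chance gives about 1.5, or 1 in 20. Tlr2 was at 6.162 in wild-type tumor replicate 1 and at 7.342 to 7.647 in the other 4 tumor libraries. The mean of the dendritic cell markers was 1.98 in knockout spleen replicate 2 and 1.273 to 1.365 in the other spleen libraries. The mean of the CD8 T and NK markers was 4.021 in knockout tumor replicate 2, the tumor library with the highest values of 6 of the 9 genes, and 4.975 to 5.241 in the other tumor libraries.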

How the results depend on the processing

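The differences of Cd14, Tlr2, Tlr4, Tlr9 and Tlr13 between tissues kept their direction and stayed past the threshold under every alternative run for the pooled comparison. The number of genes called changed by over 1.5 times only with the Bonferroni correction, to 5 of 9 in the pooled comparison, 5 in wild type and 4 in knockout, and in the genotype comparisons and the interaction it was 0 under every alternative. No source ties the replicate numbers to animals, so the numbers were not taken as pairs in the main fit. Deviations of same-numbered spleen and tumor libraries had correlations from -0.128 to 0.0375. With 2 to 3 libraries per group these correlations cannot show whether animals were shared. With the replicate block 9 genes were called in the pooled comparison, 8 in wild type, where Myd88 was lost (adjusted p = 0.11), and 7 in knockout, where Irak3 was lost (adjusted p = 0.11). The shares of all genes called with the Bonferroni correction or the replicate block were not computed. These counts thus do not say how the 9 genes compare with other genes. The unknown scaling of n, low values in spleen, and 2 to 3 libraries per group limit the precision.

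With equal library totals Myd88 reversed to -0.138 in the pooled comparison, -0.126 in wild type and -0.151 in knockout, and Tlr13 relative to the myeloid markers reversed to 0.024 with a pseudocount of 0.1. Among the other pathway genes, with quantile normalization, centring on medians and equal totals (in this order), Irak4 was at -0.223, -0.215 and -0.587, Tbk1 at -0.105, -0.059 and -0.446, Tnfaip3 at -0.648, -0.027 and -0.436, and Socs1 at -0.189, -0.029 and -0.430. With equal totals Irak4, Tbk1, Tnfaip3 and Socs1 were called lower, and Tnfaip3 was also called lower after quantile normalization. After quantile normalization and with equal totals Irf7 was at -0.017 and -0.301 and Rela at -0.088 and -0.375. Irak4 was at -0.0046 with the replicate block and -0.0075 with genotypes weighted equally, and with a library left out it lay between -0.038 and 0.054, and Traf3 between -0.065 and 0.024. The scalings moved the median of all genes as given with the results, and otherwise the cause was not tested.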
